A study of Sus scrofa with 6 samples.

Results

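Collagen chains other than those of types IV, VII, XV and XVIII were followed in cells of pig ear cartilage that had been given a PPARD agonist. The members were all gene models whose deposited protein annotation holds the words "collagen alpha-", less the chains of those 4 types, which belong to basement membranes and to the anchoring fibrils and proteoglycan-bearing collagens next to them. Of 19670 gene models, 55 hold the words and 42 remained, from 31 chains of 22 collagen types. By type they fall into 15 fibrillar models of 9 chains, 10 fibril-associated models of 8 chains, 3 network-forming models of 3 chains and 14 models of 11 chains of other kinds. No expression value was used to choose them. A symbol was matched to 24 members, and the other 18 are given by identifier with the chain named in their annotation.

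The cells were primary cells of auricular (external ear) cartilage that had been released from the tissue by enzymes. All came from 1 pig 4 months old, a Duroc x (Landrace x Large White) hybrid that carried wild-type PPARD. One group was kept for 24 h with GW0742, a compound that activates the nuclear receptor PPARD, and the other for 24 h with the solvent DMSO. Each group has 3 libraries of oligo(dT)-captured RNA, numbered 1 to 3. The donor, breed, age and incubation time are thus shared by both groups. The labels do not say that the 3 libraries of a group came from separate cultures, so each p-value reflects only how far these libraries vary, and that variation may be technical. In such bulk libraries, fewer cells of a type and less RNA per cell cannot be told apart.

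A collagen molecule is a triple helix of alpha chains, which may be alike or differ. Fibrillar collagens align into the striated fibrils that bear tension, fibril-associated collagens sit on the surface of those fibrils, and network-forming collagens join end to end into sheets. In cartilage the fibrils are built mainly of type II collagen with types IX and XI, and type VI collagen surrounds each chondrocyte with beaded filaments, whereas type I collagen prevails in perichondrium, skin and bone and in chondrocytes grown as a monolayer.

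The libraries held 13133894 to 16913742 reads, and 3 reads, taken as the floor, correspond to 0.177 to 0.228 CPM, counts scaled to a common library size. Libraries of 1 group differed by more than sampling noise, with chi-square per degree of freedom of 4.06 to 14.9 against 9.51 to 16.7 between groups. The highest value within a group was between GW0742 replicates 2 and 3. Of the markers of chondrocytes, 8 of 9 symbols matched a model and 7 were deep enough to test. Their summed level was 971 to 1035 CPM in the DMSO group and 733 to 770.5 CPM in the GW0742 group, most of it ACAN, the core protein of aggrecan, which was the marker lower in edgeR (815 ± 34.1 CPM in the DMSO group and 576 ± 16.3 CPM in the GW0742 group, mean ± SD, n = 3, adjusted p = 0.0185). Of the 7 tested, 3 had log2 values above 0, SNORC (0.34 ± 0.17, no overlap), COMP (0.06 ± 0.09) and MATN3 (0.08 ± 0.26), and 4 below, ACAN and SOX9 (-0.16 ± 0.08) without overlap. CNMD, the gene of chondromodulin in cartilage, had no reads in any DMSO library. The 5 matched fibroblast markers summed to 14084 to 14425 CPM in the DMSO group and 13686 to 14687 CPM in the GW0742 group, nearly all of it VIM (13857 ± 179 CPM in the DMSO group). None passed in edgeR or DESeq2, 4 of the 5 log2 values were above 0, and FAP (0.42 ± 0.12, edgeR adjusted p = 0.148) and DCN (0.39 ± 0.13, edgeR adjusted p = 0.194) were higher without overlap. Over all tested models 11.4% were higher and 12.1% lower without overlap, and 50.3% had log2 values below 0.

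Type I collagen led the collagen RNA of these cells per length, followed by 2 of the chains of type VI. Levels between genes are compared here as RPKM, reads scaled by the length of the model and the depth of the library, with means ± SD of the 3 DMSO libraries (n = 3). The highest members were the 3 short models of alpha-1(I), the chain that pairs with alpha-2(I) in type I collagen: ENSSSCG00000021943 at 24500.2 ± 2099 RPKM, ENSSSCG00000030313 at 24432 ± 1866 RPKM and ENSSSCG00000021015 at 13107 ± 532 RPKM. Those 3 models are 433, 367 and 494 bases long, so none spans the whole chain. COL1A2, the alpha-2(I) gene, is annotated in other words and is no member, and stood at 7108 ± 297 RPKM over 5090 bases.

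Next came COL6A1 and COL6A2, chains of type VI, at 3236 ± 369 RPKM and 2533 ± 249.7 RPKM, while COL6A3, the longest chain of that type, was lower at 415 ± 48.8 RPKM. COL5A1, the type V chain that helps to start type I fibrils, stood at 978 ± 93.4 RPKM, COL3A1, the chain of type III, at 953 ± 56.2 RPKM, and COL5A2, the second type V chain, at 769 ± 53.5 RPKM. The DMSO libraries of COL5A1 and COL3A1 overlapped, so their order is not resolved.

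The chains that mark cartilage fibrils stood at lower levels per length. COL2A1, the main fibril chain of cartilage, had 109, 119 and 114 RPKM in the DMSO libraries and 112, 106 and 104 RPKM in the GW0742 libraries. COL11A1, which forms the core of type II fibrils, stood at 150.2 ± 6.37 RPKM with DMSO and its partner COL11A2 at 6.88 ± 0.554 RPKM. COL9A1, a type IX chain on the surface of type II fibrils, was among the lowest tested members at 0.576 ± 0.0347 RPKM, and the alpha-2(IX) model was at 5.93 ± 0.255 RPKM. COL2A1 thus amounted to 0.0161 ± 0.00024 of COL1A2 per length with DMSO and 0.0168 ± 0.00059 with GW0742, and the libraries of both groups overlapped. COL10A1, the chain of hypertrophic cartilage, stood at 1.17 ± 0.0999 RPKM.

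With DMSO, 33 of the 42 members had a mean of at least 1 RPKM and 16 had at least 100 RPKM. The other 9 were under 1 RPKM, and 6 of these had too few reads to test, between 0 and 8 in a library. Those 6 are COL21A1, both models of alpha-1(XXV), both of alpha-4(VI) and COL6A5, and at this depth no difference between groups was detectable for them. Members outside the naming rule that is given with the processing, such as COL3A1, COL5A1, COL5A2, COL11A2, the alpha-2(IX) model and the alpha-1(XXVII) models, were picked with their values in view.

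**Figure D1:**
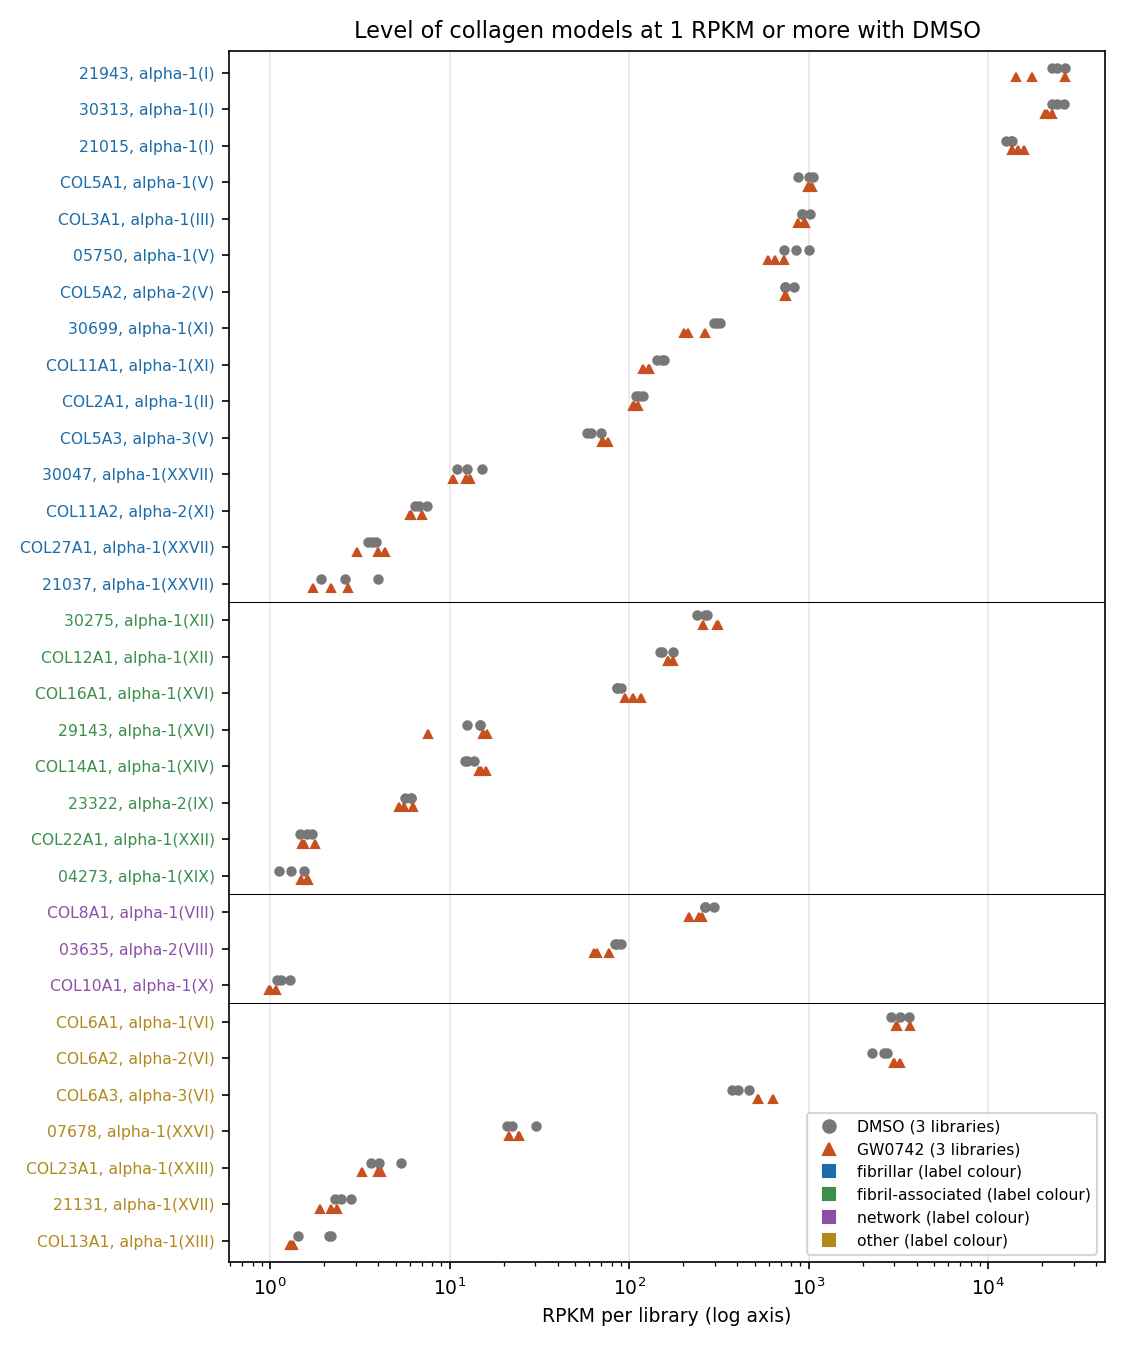
Level of the 33 collagen models with a DMSO mean of at least 1 RPKM, by role, on a log axis of RPKM; grey circles are the 3 DMSO libraries and orange triangles the 3 GW0742 libraries, and 5-digit names are the last digits of the model identifier. The 3 alpha-1(I) models lie at the top of the axis, COL6A1 and COL6A2 come next, and both groups lie close together in nearly every model.

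No collagen model passed an adjusted p under 0.05 in edgeR, in either direction, among the 36 members tested. Over all 14146 tested models this test called 37 (0.262%), of which 26 higher (0.184%) and 11 lower (0.0778%) with GW0742. At an unadjusted p under 0.05, 13 of the 36 members were called (36.1%), 4 higher and 9 lower, against 16.8% of all tested models, 7.93% higher and 8.91% lower. DESeq2, run on the same counts, called 7 members (19.4%) at an adjusted p under 0.05, 2 higher and 5 lower, against 3.12% of all models, 1.46% higher and 1.65% lower. The 3 libraries of a group lay apart from those of the other, with no overlap, in 15 members, 5 higher and 10 lower, or 41.7% against 23.5% of all models (11.4% higher and 12.1% lower). The fitted log2 fold change was below 0 in 24 members (66.7%, against 50.3% of all models) and above 0 in 12.

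The differences were small. The median log2 fold change over the members was -0.10, from -0.62 to 0.40, beside -0.00155 over all tested models, and no member reached 2-fold. Standard errors, which follow the ± sign of log2 values, ran from 0.06 to 0.29. The collagen models together took 6.23%, 6.93% and 6.49% of the reads of DMSO libraries 1 to 3 and 6.49%, 6.99% and 6.38% of those of the GW0742 libraries, so the groups overlapped. One library stood out in these values: DMSO replicate 2 was the highest DMSO library in 28 of the 36 tested members (77.8%), against 41.0% of all tested models, and DMSO replicate 1 the lowest in 24 (66.7% against 30.6%). Without DMSO replicate 2 the members' median was -0.05.

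By role, the median was -0.13 over the 15 fibrillar models and 0.05 over the 9 tested fibril-associated models. It was -0.24 over the 3 network models and -0.10 over the 9 tested models of other kinds. The fibril-associated median is the value of COL12A1 (0.05 ± 0.08). That value was -0.0047 without DMSO replicate 1, so the sign of this median is not settled. By share of the reads, the network chains took 0.0549%, 0.0566% and 0.0554% with DMSO and 0.0446%, 0.0494% and 0.0482% with GW0742, lower in all 3 GW0742 libraries. The fibril-associated chains took 0.114%, 0.129% and 0.118% with DMSO and 0.133%, 0.139% and 0.136% with GW0742, higher in all 3. Fibrillar chains took 4.46%, 4.75% and 4.50% with DMSO and 4.18%, 4.56% and 4.11% with GW0742, where the second GW0742 library lay inside the DMSO range. That share leaves out COL1A2 and further type I models whose annotation is worded otherwise. With COL1A2 alone added, the shares were 8.24%, 8.86% and 8.34% with DMSO and 7.86%, 7.90% and 7.73% with GW0742, lower in all 3. The further type I models were not added to these shares. The other chains, nearly all type VI, took 1.60%, 1.99% and 1.81% with DMSO and 2.13%, 2.24% and 2.09% with GW0742, higher in all 3. The differences between roles were not tested. For the 13 models of types IV, VII, XV and XVIII, all tested, the median was 0.18. Of these, 2 passed in edgeR, both higher, or 15.4% against 0.184% of all tested models.

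**Figure D2:**
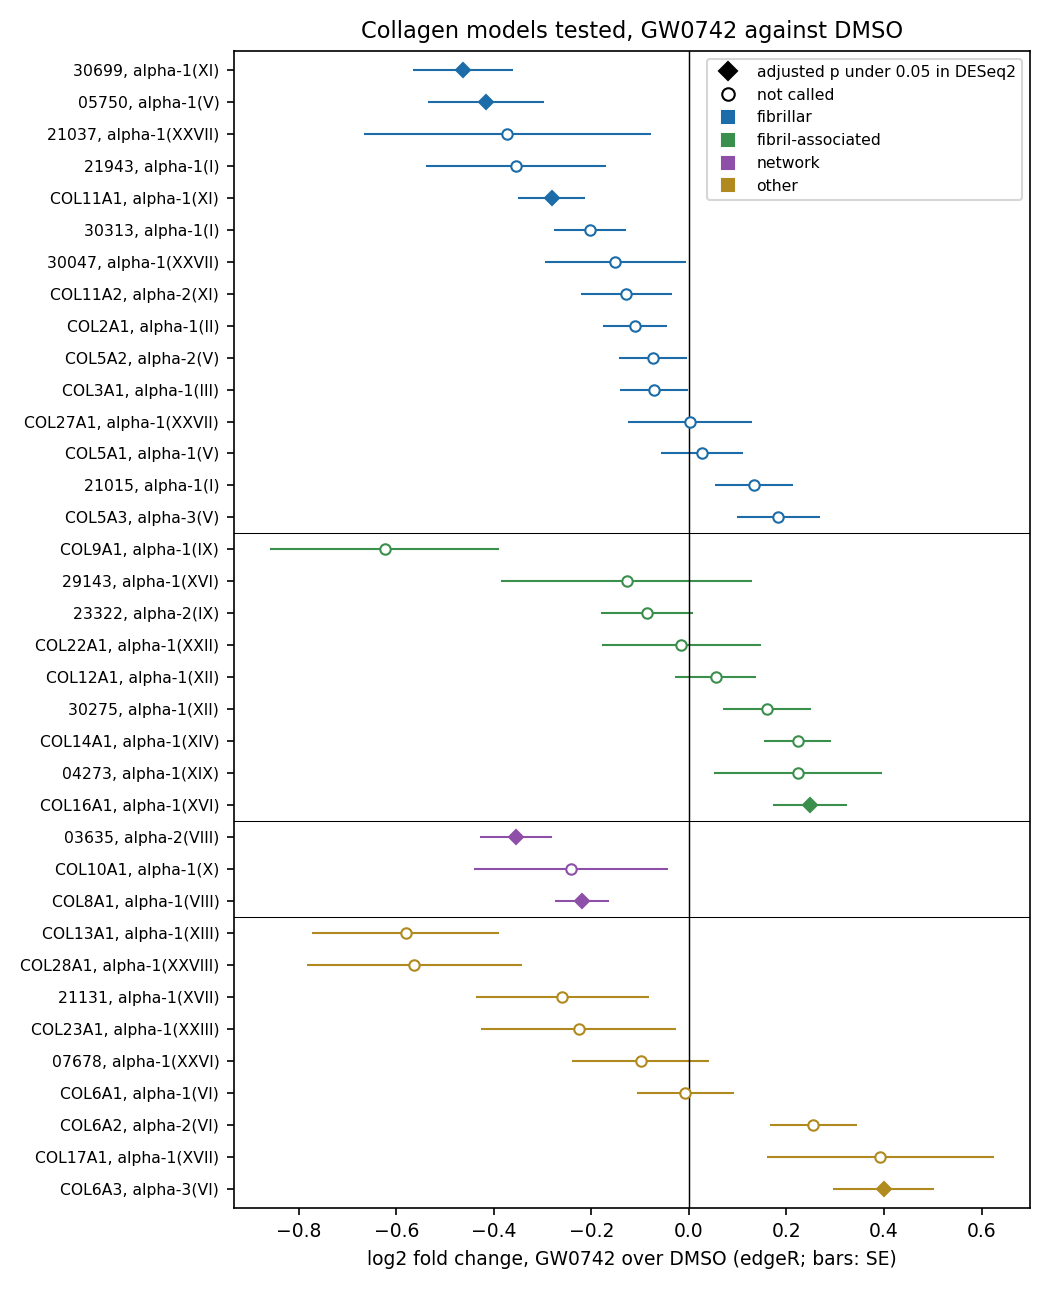
Fitted log2 fold change (GW0742 over DMSO, edgeR, bars 1 SE) of the 36 collagen models tested, by role; filled diamonds passed an adjusted p under 0.05 in DESeq2, open circles did not, and none passed in edgeR. Values run from -0.62 to 0.40, with all 3 network models below 0.

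Among the fibrillar chains both models of alpha-1(XI) were called lower by DESeq2 and not by edgeR; it is the chain in the core of thin cartilage fibrils. COL11A1 (ENSSSCG00000006857) had 918, 964 and 876 CPM in the DMSO libraries and 786, 700.2 and 785 CPM in the GW0742 libraries. Every GW0742 library was below every DMSO library, and the log2 fold change was -0.28 ± 0.07 (edgeR adjusted p = 0.114, DESeq2 adjusted p = 0.00683). A second, 643-base model of this chain, ENSSSCG00000030699, had 209, 222 and 204 CPM in the DMSO libraries and 139, 141 and 181 CPM in the GW0742 libraries. Its groups did not overlap either, with GW0742 replicate 3 nearest to the DMSO libraries, and its log2 fold change was -0.46 ± 0.10 (edgeR adjusted p = 0.0983, DESeq2 adjusted p = 0.00122). Without GW0742 replicate 3 it passed in edgeR, the 1 member to do so when a library was left out (log2 -0.60, adjusted p = 0.0292). DESeq2 no longer called it without GW0742 replicate 1, nor COL11A1 without DMSO replicate 1 or DMSO replicate 2.

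With both models summed, alpha-1(XI) had 1127, 1185 and 1079.8 CPM in the DMSO libraries and 924, 842 and 966 CPM in the GW0742 libraries, with a log2 fold change of -0.31 ± 0.07 (edgeR adjusted p = 0.0785). Both models thus pointed the same way, and neither they nor their sum passed in edgeR on all 6 libraries. COL11A2, the partner chain, showed a log2 fold change of -0.13 ± 0.09 (edgeR adjusted p = 0.524), with overlapping libraries.

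COL2A1 (ENSSSCG00000025523) had 482, 540.3 and 510.4 CPM in the DMSO libraries and 499.8, 456 and 464 CPM in the GW0742 libraries. GW0742 replicate 1 lay within the DMSO range and the other GW0742 libraries below it, and the log2 fold change was -0.11 ± 0.07 (edgeR adjusted p = 0.436, DESeq2 adjusted p = 0.563). It was -0.07 without DMSO replicate 2 and -0.15 without DMSO replicate 1.

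Type I collagen is split over several models, whose values differed in direction. The 433-base model ENSSSCG00000021943 had 12021, 10456 and 11005 CPM in the DMSO libraries and 7987, 11723 and 6474 CPM in the GW0742 libraries. GW0742 replicates 1 and 3 were below all DMSO libraries while GW0742 replicate 2 was near the highest of them, and the log2 fold change was -0.35 ± 0.18 (edgeR adjusted p = 0.376). Its log2 fold change was -0.63 without GW0742 replicate 2, where DESeq2 called it lower, and -0.18 without GW0742 replicate 3, where it did not. ENSSSCG00000030313 had 8594, 10284 and 9258 CPM in the DMSO libraries and 7947, 8389 and 8099 CPM in the GW0742 libraries, with no overlap between the groups and a log2 fold change of -0.20 ± 0.07 (edgeR adjusted p = 0.223, DESeq2 adjusted p = 0.119). DESeq2 called it lower without DMSO replicate 1 (adjusted p = 0.0459), and without DMSO replicate 2 its edgeR log2 fold change was -0.13. ENSSSCG00000021015 had 6439, 7157 and 6967 CPM in the DMSO libraries and 7614, 6785 and 8168 CPM in the GW0742 libraries, with overlap and a log2 fold change of 0.13 ± 0.08 (edgeR adjusted p = 0.435).

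Reads that fit several of these models can be passed between them by the authors' counting, so each value alone is uncertain. With the 3 members and 3 further alpha-1(I) models of other annotation wording summed, the chain had 47844, 50534 and 52573 CPM in the DMSO libraries and 46497, 46884 and 42818 CPM in the GW0742 libraries. All 3 GW0742 libraries were below the DMSO libraries, with a log2 fold change of -0.15 ± 0.07 (edgeR adjusted p = 0.301). COL1A2 had 37765, 41995 and 38837 CPM in the DMSO libraries and 37042, 32595 and 35603 CPM in the GW0742 libraries, also without overlap, with a log2 fold change of -0.17 ± 0.07 (edgeR adjusted p = 0.268, DESeq2 adjusted p = 0.205). In edgeR neither chain of type I passed. Of the further models ENSSSCG00000017579 and ENSSSCG00000027593 had log2 fold changes of 0.00 ± 0.13 and 0.00 ± 0.09. The other, ENSSSCG00000029074 (760 bases), was called lower by DESeq2, at 11182 ± 743 CPM in the DMSO group and 9212 ± 187 CPM in the GW0742 group (log2 -0.28 ± 0.06, DESeq2 adjusted p = 0.00184, edgeR adjusted p = 0.106).

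Type V, which joins type I fibrils, gave unlike values for its models. COL5A1 (ENSSSCG00000005751, 5837 bases) had 5501, 6841 and 6396 CPM in the DMSO libraries and 6640.2, 6154 and 6298 CPM in the GW0742 libraries, with overlap and a log2 fold change of 0.03 ± 0.08. The shorter alpha-1(V) model ENSSSCG00000005750 (2031 bases) had 1845, 2241 and 1601 CPM in the DMSO libraries and 1304, 1537 and 1421 CPM in the GW0742 libraries. Its DMSO libraries were spread more widely than its GW0742 libraries, the groups did not overlap, and the log2 fold change was -0.42 ± 0.12 (edgeR adjusted p = 0.149, DESeq2 adjusted p = 0.00871). This DESeq2 call was lost when any library other than DMSO replicate 3 was left out. Summed over both models the chain had a log2 fold change of -0.06 ± 0.08 (edgeR adjusted p = 0.731).

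COL5A3, the rarer alpha-3 chain of type V, had 333, 411 and 358 CPM in the DMSO libraries and 444, 401 and 406 CPM in the GW0742 libraries. All its GW0742 libraries were above DMSO replicates 1 and 3, and 2 of the 3 were below DMSO replicate 2; the log2 fold change was 0.18 ± 0.09 (edgeR adjusted p = 0.326). Without DMSO replicate 2, DESeq2 called it higher, and without DMSO replicate 1 its log2 fold change was 0.12. COL3A1 and COL5A2 showed log2 fold changes of -0.07 ± 0.07 and -0.07 ± 0.07, both with overlap, and -0.01 and -0.0039 without DMSO replicate 2. The 3 models of alpha-1(XXVII), a fibrillar chain of developing cartilage, stood at 12.9 ± 2.11, 3.71 ± 0.194 and 2.84 ± 1.06 RPKM with DMSO and had log2 fold changes of -0.15 ± 0.14, 0.00 ± 0.13 and -0.37 ± 0.29.

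**Figure D3:**
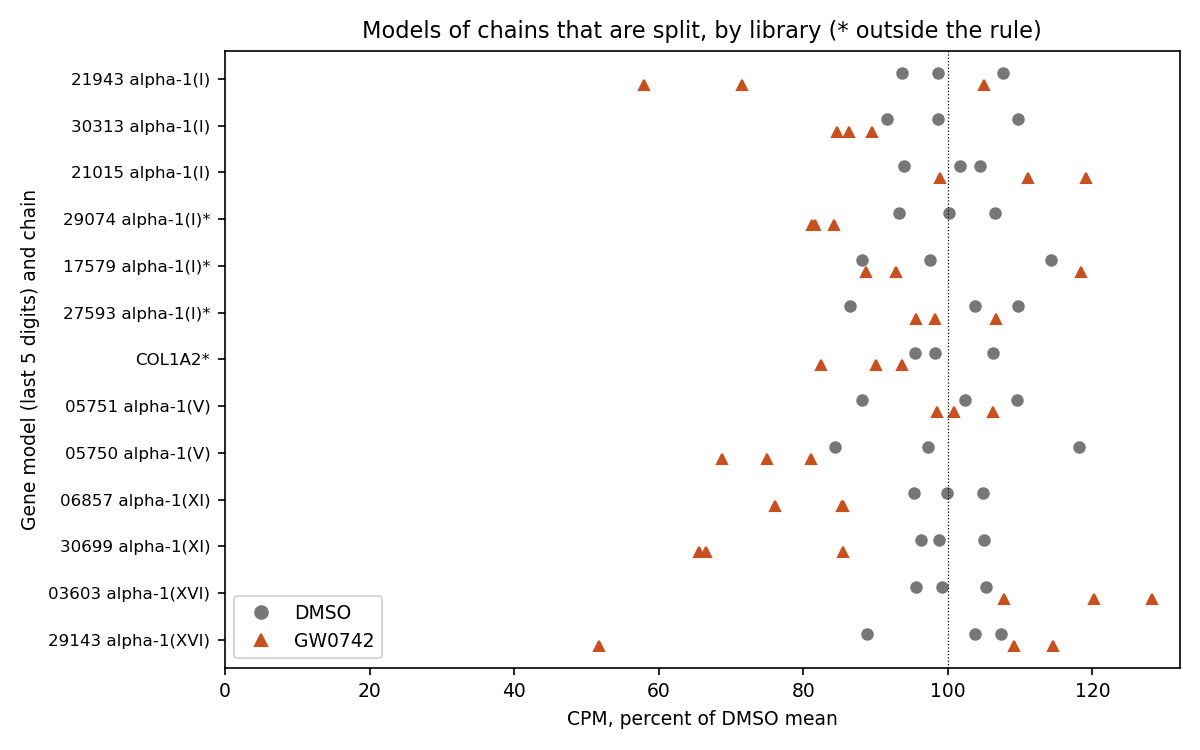
CPM in each library as percent of the DMSO mean (linear axis from 0) for gene models of chains that are split over several models, with COL1A2; circles are DMSO and triangles GW0742 libraries, and an asterisk marks models outside the collagen set. The models of alpha-1(I) scatter to both sides of 100, both alpha-1(XI) models lie below 100 in every GW0742 library, and 1 of the 2 alpha-1(XVI) models has a single GW0742 library far below the rest.

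Of the 9 tested fibril-associated models, 2 (COL16A1 and COL14A1) were higher without overlap and 1 (COL9A1) was lower. Over all tested models these shares were 11.4% and 12.1%. COL16A1, which binds to fibrils and microfibrils in skin and cartilage, had 423, 465 and 438 CPM in the DMSO libraries and 531, 567 and 476 CPM in the GW0742 libraries. The lowest GW0742 library was close to the highest DMSO library, and the log2 fold change was 0.25 ± 0.08 (edgeR adjusted p = 0.167, DESeq2 adjusted p = 0.0483). The DESeq2 call was lost when DMSO replicate 1 or 3 or GW0742 replicate 1 or 2 was left out. A second model of the chain, ENSSSCG00000029143 (1303 bases), had 20.5, 21.2 and 17.6 CPM in the DMSO libraries and 21.6, 10.21 and 22.6 CPM in the GW0742 libraries. GW0742 replicate 2 was far below the other 5 libraries here, which left a log2 fold change of -0.13 ± 0.26 (edgeR adjusted p = 0.843), and without that library the value was 0.16. Both models summed gave a log2 fold change of 0.24 ± 0.07 (edgeR adjusted p = 0.142).

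COL14A1, a chain that decorates type I fibrils, had 76.7, 86.0 and 76.3 CPM in the DMSO libraries and 92.5, 95.8 and 90.3 CPM in the GW0742 libraries. The groups did not overlap, and the log2 fold change was 0.22 ± 0.07 (edgeR adjusted p = 0.169, DESeq2 adjusted p = 0.158). DESeq2 called it without DMSO replicate 2. COL12A1, its close relative on type I fibrils, had 501, 612 and 525 CPM in the DMSO libraries and 564, 541 and 596 CPM in the GW0742 libraries, with overlap and a log2 fold change of 0.05 ± 0.08, and the second, 372-base model of alpha-1(XII), ENSSSCG00000030275, had a log2 fold change of 0.16 ± 0.09 (edgeR adjusted p = 0.41).

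COL9A1, of the same role, had lower values with GW0742. COL9A1 (ENSSSCG00000004274) had 1.72, 1.65 and 1.86 CPM in the DMSO libraries and 1.30, 1.12 and 0.979 CPM in the GW0742 libraries. All GW0742 libraries were below all DMSO libraries, at a level of 1 to 2 CPM, and its log2 fold change was -0.62 ± 0.23 (edgeR adjusted p = 0.236, DESeq2 adjusted p = 0.66). The alpha-2(IX) model had 18.7, 17.9 and 19.2 CPM in the DMSO libraries and 17.5, 18.7 and 16.4 CPM in the GW0742 libraries, with overlap and a log2 fold change of -0.09 ± 0.09. Alpha-1(XIX) showed 0.22 ± 0.17 on the log2 scale and COL22A1, a chain of tissue junctions, -0.02 ± 0.16.

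All 3 network-forming chains had GW0742 libraries below their DMSO libraries, against 12.1% of all tested models. The alpha-2(VIII) model ENSSSCG00000003635, of a collagen that forms lattices under vessel and corneal endothelium, had 189.9, 209 and 198 CPM in the DMSO libraries and 146, 170.0 and 151 CPM in the GW0742 libraries. Its log2 fold change was -0.35 ± 0.07 and its edgeR adjusted p of 0.0876 was the lowest of all members on the 6 libraries (DESeq2 adjusted p = 0.00199). DESeq2 called it without each of the 6 libraries in turn. COL8A1, the partner chain alpha-1(VIII), had 356, 367 and 360.4 CPM in the DMSO libraries and 299.5, 309.8 and 322 CPM in the GW0742 libraries, with a log2 fold change of -0.22 ± 0.06 (edgeR adjusted p = 0.123, DESeq2 adjusted p = 0.0213). That call was lost without DMSO replicate 1, 2 or 3 or GW0742 replicate 1.

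Type VIII collagen is also made by endothelial and smooth muscle cells, and some markers of both differed between the groups. All 5 matched endothelial markers had log2 fold changes above 0, and DESeq2 called PECAM1 and KDR higher (PECAM1 at 11.7 ± 0.563 CPM in the DMSO group and 26.3 ± 9.82 CPM in the GW0742 group, DESeq2 adjusted p = 0.000214, edgeR adjusted p = 0.0978). Their sum was 25.0 to 30.0 CPM in the DMSO group and 35.5 to 66.5 CPM in the GW0742 group, with none at 0 in every library. Of 5 smooth muscle markers 4 were below 0, and DESeq2 called ACTA2 and CNN1 lower (ACTA2 at 3700.3 ± 85.5 CPM in the DMSO group and 3028 ± 256 CPM in the GW0742 group, DESeq2 adjusted p = 0.00562, edgeR adjusted p = 0.12). DES (log2 -0.29 ± 0.09) and TAGLN (log2 -0.13 ± 0.12, with overlap) were not called. MYH11 went the other way (log2 0.09 ± 0.17, with overlap) and was scarce, at 4.13 ± 0.386 CPM in the DMSO group. The smooth muscle sum was 8115 to 8551 CPM in the DMSO group and 6161 to 7812 CPM in the GW0742 group. Over all tested models DESeq2 called 1.46% higher and 1.65% lower. Neither the presence of such cells nor their part in the type VIII values was tested. COL10A1 had 2.61, 2.55 and 3.00 CPM in the DMSO libraries and 2.45, 2.18 and 2.28 CPM in the GW0742 libraries, with no overlap and a log2 fold change of -0.24 ± 0.20 (edgeR adjusted p = 0.578). Its groups nearly met, with 34 reads in DMSO replicate 2 and 32 in GW0742 replicate 1.

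**Figure D4:**
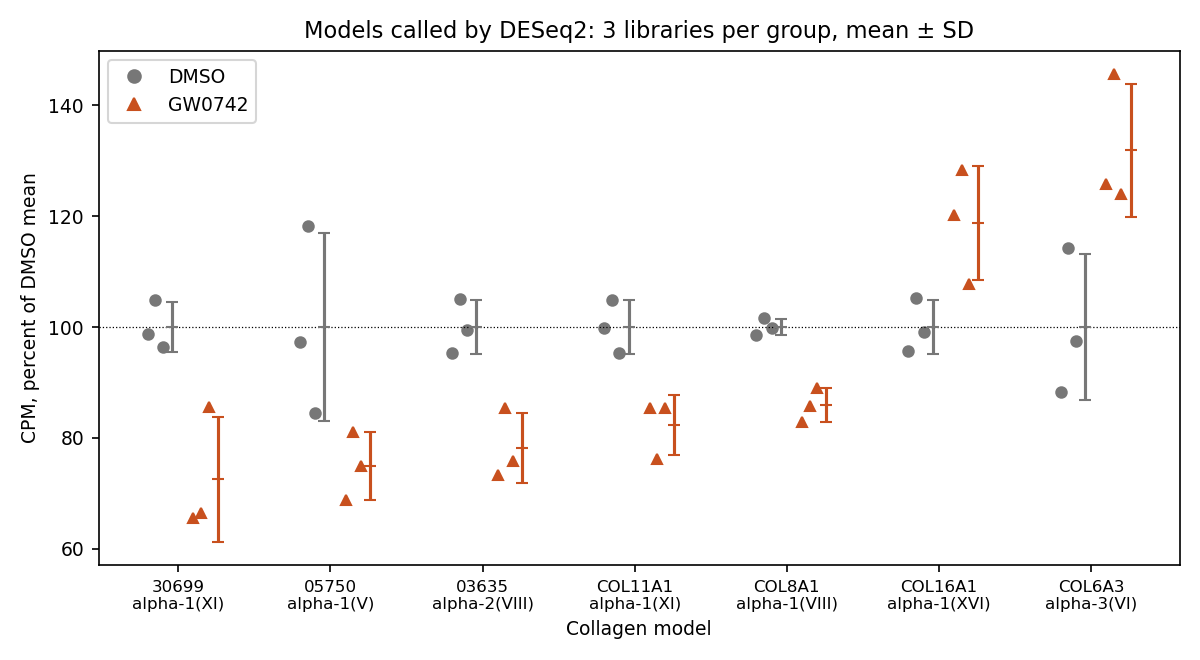
CPM in each library as percent of the DMSO mean (axis from below 60) for the 7 collagen models that DESeq2 called, with mean ± SD of 3 libraries per group. In all 7 the groups do not overlap; 5 models are lower and COL16A1 and COL6A3 higher with GW0742.

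Type VI collagen, the filament collagen around chondrocytes, showed unlike values for its 3 main chains. COL6A3 (ENSSSCG00000027331) had 3938, 5098 and 4345 CPM in the DMSO libraries and 5613, 6495 and 5534 CPM in the GW0742 libraries. All GW0742 libraries were above all DMSO libraries, with GW0742 replicate 2 the highest, and the log2 fold change was 0.40 ± 0.10 (edgeR adjusted p = 0.125, DESeq2 adjusted p = 0.00342). DESeq2 did not call it without DMSO replicate 1 or without DMSO replicate 3. COL6A2 had 7522, 9393 and 8856 CPM in the DMSO libraries and 10936, 9742 and 10075 CPM in the GW0742 libraries. Its groups did not overlap, and the log2 fold change was 0.25 ± 0.09 (edgeR adjusted p = 0.207, DESeq2 adjusted p = 0.076). Without DMSO replicate 2, DESeq2 called it higher, and without DMSO replicate 1 its log2 fold change was 0.17. COL6A1 had 4469.8, 5787 and 5124 CPM in the DMSO libraries and 4849, 5569.7 and 4883 CPM in the GW0742 libraries, with overlap and a log2 fold change of -0.01 ± 0.10, which took the other sign (0.09) without DMSO replicate 2.

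The membrane-spanning and other chains were scarce. COL13A1, a membrane-spanning chain of cell contacts, had 7.23, 5.03 and 7.49 CPM in the DMSO libraries and 4.59, 4.24 and 4.44 CPM in the GW0742 libraries. No library overlapped, though DMSO replicate 2 was close to the GW0742 libraries, and the log2 fold change was -0.58 ± 0.19 (edgeR adjusted p = 0.189). COL28A1, a chain with von Willebrand factor A domains, had 2.55, 3.30 and 2.70 CPM in the DMSO libraries and 2.07, 1.68 and 2.02 CPM in the GW0742 libraries, with a log2 fold change of -0.56 ± 0.22 (edgeR adjusted p = 0.252) and no overlap.

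COL17A1, the hemidesmosome collagen of epithelia, was the other chain of this kind without overlap, at 1.60, 1.80 and 1.80 CPM in the DMSO libraries and 2.45, 2.55 and 1.83 CPM in the GW0742 libraries (log2 0.39 ± 0.23, edgeR adjusted p = 0.432). GW0742 replicate 3 nearly met DMSO replicates 2 and 3, with 28 reads against 24 and 30. The second alpha-1(XVII) model, ENSSSCG00000021131, showed -0.26 ± 0.18, so the models of this chain differed in sign, and their sum gave -0.07 ± 0.14. Of 6 keratinocyte markers 4 matched, with a sum of 2.25 to 2.46 CPM in the DMSO group and 2.02 to 2.52 CPM in the GW0742 group. COL23A1 and alpha-1(XXVI) had log2 fold changes of -0.23 ± 0.20 and -0.10 ± 0.14, with overlap.

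Ratios of chains within each library, which do not depend on the scaling between libraries, set chains of 1 collagen, or of different collagens, against each other. Pairs were chosen after the values had been seen, and levels of split chains were averaged over their models by length. The ratio of alpha-3(VI) to alpha-1(VI) per length was 0.130, 0.130 and 0.125 with DMSO and 0.171, 0.172 and 0.167 with GW0742. Its 3 values varied little within each group and did not overlap between them, a difference of 32.5%. Alpha-2(VI) to alpha-1(VI) was 0.786, 0.758 and 0.807 with DMSO and 1.05, 0.817 and 0.964 with GW0742, also apart, with GW0742 replicate 2 close to the DMSO libraries. Alpha-3(VI) to alpha-2(VI) overlapped between the groups.

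In the fibril-starting chains, alpha-3(V) to alpha-2(V) was 0.0790, 0.0838 and 0.0829 with DMSO and 0.102, 0.0965 and 0.0950 with GW0742, higher in every GW0742 library. Alpha-1(XI) to alpha-1(V) was 0.194, 0.165 and 0.171 with DMSO and 0.147, 0.138 and 0.158 with GW0742, and alpha-1(XI) to alpha-1(II) was 1.54, 1.45 and 1.39 with DMSO and 1.22, 1.21 and 1.37 with GW0742. Both were lower in every GW0742 library, though GW0742 replicate 3 came close to the lowest DMSO library in the second. The ratio of alpha-1(I) to alpha-2(I), from the 3 alpha-1(I) members and COL1A2, was 2.93, 2.71 and 2.86 with DMSO and 2.60, 3.37 and 2.61 with GW0742 and overlapped. Of the 12 pairs 5 did not overlap. Each of these had a two-sided exact permutation p of 0.1, the smallest that 3 against 3 libraries allow, and 0.24 after Benjamini-Hochberg adjustment over the 12. The pairs were picked with the values in view and share chains, so these p-values only restate the lack of overlap. No share over unselected pairs was computed.

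**Figure D5:**
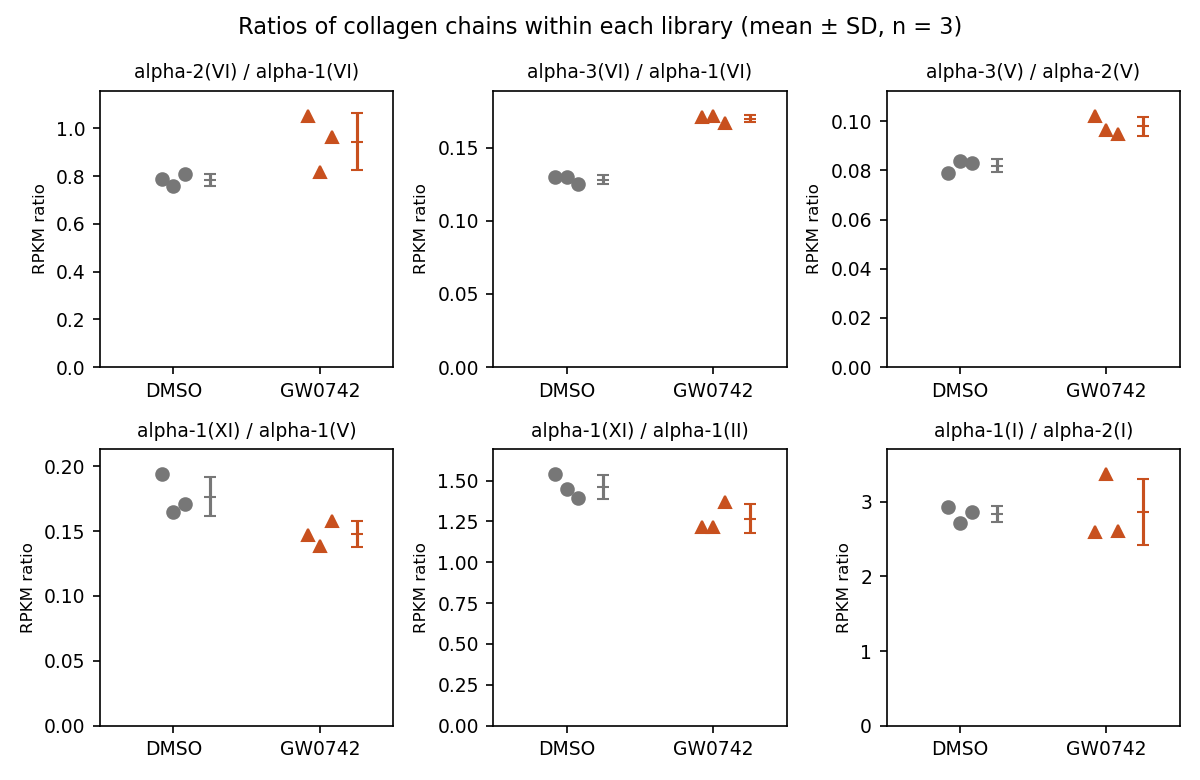
Ratio of 2 collagen chains within each library, from RPKM, for 6 pairs (linear axes from 0); points are libraries and bars mean ± SD of 3 libraries. Alpha-3(VI) over alpha-1(VI) lies at 0.125 to 0.130 with DMSO and 0.167 to 0.172 with GW0742, while alpha-1(I) over alpha-2(I) overlaps between the groups.

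Summing the models of each chain left 31 chains, of which 27 were tested. None passed in edgeR, where this fit called 0.385% of all 12193 summed models higher and 0.172% lower. By unadjusted p under 0.05, 6 chains were lower and 4 higher, against 9.24% and 8.34% of all summed models. Groups did not overlap in 8 lower and 4 higher chains, against 12.3% and 11.7%. The log2 fold change was below 0 in 20 chains, against 50.2% of all, and above 0 in 7. The 9 chains held by more than 1 member model account for 20 of the 42 members. Models of 1 chain differed in DMSO mean RPKM by 1.14 times for alpha-1(V), 1.87 for alpha-1(I), 2.05 for alpha-1(XI), 4.53 for alpha-1(XXVII), 6.22 for alpha-1(XVI) and 6.33 for alpha-1(XVII). Members that share a chain are therefore not independent of each other.

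The genes that make, bind and break down collagen were counted from lists of such genes. Over all tested models, 7.93% were higher and 8.91% lower at an unadjusted p under 0.05 in edgeR, and 50.3% had log2 values below 0. DESeq2 called 1.46% of all models higher and 1.65% lower. Counts in short lists can lie near these shares. Of the enzymes and chaperones that modify and fold the chains, 13 of 20 symbols matched a model and all 13 were tested. None passed in edgeR, and by unadjusted p under 0.05, 2 were lower. Of the fitted values, 11 of 13 log2 fold changes were below 0, with a median of -0.09. DESeq2 called 1 lower, P4HA2, a subunit of the prolyl hydroxylase that stabilises the helix. P4HA2 had 858, 927 and 907 CPM in the DMSO libraries and 811, 692 and 769 CPM in the GW0742 libraries, without overlap (log2 -0.24 ± 0.07, edgeR adjusted p = 0.158, DESeq2 adjusted p = 0.0372). P4HA3, of the same family, had a log2 fold change of -0.24 ± 0.09 (edgeR adjusted p = 0.246).

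Of the propeptide-cleaving and cross-linking enzymes, 10 of 13 were tested, and edgeR and DESeq2 called none of them. At an unadjusted p under 0.05, 1 of the 10 was lower, against 8.91% of all tested models. The lowest p belonged to ADAMTS14, a procollagen N-propeptidase, at 12.6 ± 1.47 CPM in the DMSO group and 9.34 ± 1.06 CPM in the GW0742 group (log2 -0.42 ± 0.14, edgeR adjusted p = 0.188), followed by the lysyl oxidase relative LOXL1 (log2 0.12 ± 0.06, edgeR adjusted p = 0.384). The list's median was 0.02.

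Among the fibril-binding proteins 14 of 16 were tested, none of them past edgeR's threshold. By unadjusted p under 0.05, 5 of the 14 were higher and 1 lower, against 7.93% and 8.91% of all tested models, and the median was 0.07. DESeq2 called LUM, the gene of the fibril-spacing proteoglycan lumican, higher. LUM had 32.7, 47.2 and 33.0 CPM in the DMSO libraries and 61.0, 67.0 and 49.1 CPM in the GW0742 libraries, all above the DMSO libraries (log2 0.65 ± 0.16, edgeR adjusted p = 0.117, DESeq2 adjusted p = 0.00335). POSTN, the gene of periostin, had a log2 fold change of 0.84 ± 0.22 (edgeR adjusted p = 0.129). Of the collagen receptors 7 of 10 were tested, with none called by edgeR, by DESeq2 or at an unadjusted p under 0.05, and a median of 0.05. The smallest p in that list was of ITGB1 (log2 -0.10 ± 0.07, edgeR adjusted p = 0.472) and the next of ITGA2 (log2 0.25 ± 0.21, edgeR adjusted p = 0.591).

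The collagen breakdown list had a median log2 fold change of 0.92. Of its 11 symbols 6 were tested, 5 of them above 0. MMP2 (699 ± 55.3 CPM in the DMSO group, log2 -0.04 ± 0.08) and MMP14 (425 ± 12.9 CPM, log2 0.10 ± 0.06) overlapped between the groups. MMP1 stood at 2.98 ± 0.417 CPM in the DMSO group. The list summed to 1498 to 1707 CPM in the DMSO group and 1648 to 1839 CPM in the GW0742 group, with overlap. In this list edgeR called none at its adjusted threshold and 4 higher at an unadjusted p under 0.05, while DESeq2 called those 4, MMP1, MMP9, MMP13 and TIMP1. Over all tested models 7.93% were higher at that unadjusted p, and DESeq2 called 1.46% higher. MMP13, a collagenase that cuts type II collagen, had 0.474, 0.525 and 0.539 CPM in the DMSO libraries and 4.90, 8.35 and 1.96 CPM in the GW0742 libraries, with GW0742 replicate 2 the highest (log2 3.29 ± 0.54, edgeR adjusted p = 0.061). MMP9, a gelatinase, had 5.45, 7.43 and 7.91 CPM in the DMSO libraries and 23.1, 23.2 and 12.1 CPM in the GW0742 libraries, with GW0742 replicate 3 the lowest of its group (log2 1.49 ± 0.26, edgeR adjusted p = 0.0651). TIMP1, an inhibitor of these enzymes, stood at 474 ± 56.3 CPM in the DMSO group and 602 ± 22.9 CPM in the GW0742 group (DESeq2 adjusted p = 0.0067, edgeR adjusted p = 0.125).

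Of 12 transcription factors of collagen genes 7 were tested, none of them past edgeR's threshold. By unadjusted p under 0.05, 1 of the 7 was higher and 1 lower, against 7.93% and 8.91% of all tested models, and the median was 0.03. DESeq2 called KLF4 lower, with 83.2, 93.9 and 89.9 CPM in the DMSO libraries and 75.8, 65.4 and 73.7 CPM in the GW0742 libraries (log2 -0.31 ± 0.08, edgeR adjusted p = 0.122, DESeq2 adjusted p = 0.0372). RUNX2, the regulator of hypertrophic cartilage and bone, had 3.32, 3.83 and 4.13 CPM in the DMSO libraries and 5.05, 6.10 and 6.85 CPM in the GW0742 libraries (log2 0.68 ± 0.19, edgeR adjusted p = 0.139), without overlap. Of the hypertrophic chondrocyte markers 3 of 6 were tested, all with log2 values above 0, and DESeq2 called MMP13. The list summed to 87.6 to 142 CPM in the DMSO group and 140.2 to 189 CPM in the GW0742 group. Most of that was SPP1, at 109 ± 27.0 CPM in the DMSO group and 159 ± 29.3 CPM in the GW0742 group, with overlap. COL10A1, the collagen chain of that stage, had a log2 fold change of -0.24 ± 0.20, as given with the network chains.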

How the data were processed

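Each library has a deposited table that lists estimated counts and RPKM values by gene model, per the file headers, and the series table repeats the authors' RPKM values with a protein annotation. The build was Sscrofa 10.2, per the submitters' processing notes; aligner, counter and annotation release: not given in the sources used here. No strand step is named in the labels' protocols, so reads of overlapping opposite genes are not separable. Estimated counts can pass reads between models of 1 chain. No coordinates or sequences are printed, because no genome of that build was used here.

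Rounded estimated counts passed filterByExpr (by group, at least 10 reads) and TMM scaling. GW0742 was set against DMSO over all 14146 remaining models and 6 libraries in edgeR 4.0.16 (R 4.3.3, quasi-likelihood F-test), with no block. Adjusted p-values are two-sided, Benjamini-Hochberg over all tested models, with a threshold of 0.05. CPM are per TMM-scaled library size. The SE is the log2 fold change divided by the root of F. Alternatives were DESeq2 1.42.0, limma 3.58.1 on the deposited RPKM as log2(RPKM + pseudocount of 1 or 0.1), median-of-ratios size factors, no filter, the replicate number as a block, summed models, a threshold of 0.01 and leaving out each library. DESeq2 without each library and the chain ratios were alternatives added with the data seen. Of these fits, the main edgeR fit and the DESeq2 fit were first checked on simulated counts. There edgeR recovered 54.5% and DESeq2 47% of the models given a 1.5-fold difference. At 2-fold they recovered 68.8% and 67.2%. Of all their calls at the 0.05 threshold, 6% in edgeR and 8.3% in DESeq2 were models given no difference. The simulated spread followed the trend with level, not each model's own spread, and no difference under 1.5-fold was simulated.

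The members, lists and tests were chosen with earlier results of these data known. The text names COL1A1 (here the alpha-1(I) models, as none has that symbol), COL1A2, COL2A1, COL11A1 and COL9A1, members past the threshold in edgeR or DESeq2, and members at an unadjusted p under 0.05 without overlap. It also names in each role the 3 highest by RPKM and the 2 largest log2 values in each direction at 1 CPM or more, and in each list the calls and the 2 smallest p. This rule gave 24 members; others were named after their values were seen.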

Additional observations from a re-analysis of the deposited data

How the results depend on the processing

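The count of collagen models past the threshold was 0 lower and 0 higher in edgeR, under limma at both pseudocounts, median-of-ratios size factors, no filter, summed models, the replicate block and a threshold of 0.01. DESeq2 gave 5 lower and 2 higher. Leaving out 1 library gave 0 to 1 lower and 0 higher in edgeR (1 without GW0742 replicate 3), and 2 to 5 lower and 0 to 5 higher in DESeq2, where the lowest count of lower models came without DMSO replicate 2 and without GW0742 replicate 1, and the highest count of higher models without DMSO replicate 2; the 0 came without DMSO replicate 1 and without DMSO replicate 3. The cause was not tested. The members' median of -0.105 was -0.0687 under limma with a pseudocount of 1, -0.134 to -0.0484 without 1 library in edgeR and -0.134 to -0.0466 in DESeq2. Over all models, 26 higher and 11 lower in edgeR became 207 and 234 in DESeq2, 17 and 4 in limma with 0.1, 19 and 3 with 1, 13 and 3 with no filter, 47 and 21 with summed models, and 6 and 0 at 0.01 (1261 lower at an unadjusted p under 0.05). Without 1 library they were 6 to 54 and 0 to 47 in edgeR, with 0 lower when DMSO replicate 1 or 3 or GW0742 replicate 1 was left out. In DESeq2, without DMSO replicates 1, 2 and 3 and then GW0742 replicates 1, 2 and 3, they were 75, 208, 119, 113, 186 and 175 higher and 54, 146, 90, 117, 181 and 280 lower. With the replicate block they were 10 and 0 (1102 lower at an unadjusted p under 0.05). Same-numbered libraries deviated with correlations of 0.0054, -0.032 and -0.103, and not every library correlated best with its own number. These values show no pairing by number, but deviations from means of 3 libraries cannot exclude one. Signs turned in 5 of the 24 members named by the rule, which are given first. COL6A1 (-0.01) gave 0.0224 in limma at both pseudocounts, -0.0983 to 0.0879 without 1 library in edgeR, and in DESeq2 0.0911, 0.0292 and 0.0225 without DMSO replicate 2, GW0742 replicate 1 and GW0742 replicate 3. COL12A1 (0.05) gave -0.0047 (without DMSO replicate 1) to 0.143 in edgeR and -0.0041 in DESeq2 without DMSO replicate 1. ENSSSCG00000029143 (-0.13) gave 0.236 summed, -0.328 to 0.165 in edgeR without 1 library, and 0.167 in DESeq2 without GW0742 replicate 2. ENSSSCG00000021015 (0.13) gave -0.148 and COL17A1 (0.39) gave -0.0739 summed. Among members named after their values were seen, signs also turned in edgeR without 1 library. COL5A1 (0.03) gave -0.0578 to 0.097 and COL22A1 (-0.02) gave -0.097 to 0.0499. Alpha-1(XXVI) (-0.10) gave -0.193 to 0.0877, and the alpha-1(XXVII) model COL27A1 (0.00) gave -0.0938 to 0.134. Depth left 6 members untested.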
